A study of Mus musculus with 16 samples.

Results

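The unfolded protein response genes described here are 10 mouse genes, namely Hspa5, Hsp90b1, Pdia4, Dnajb9, Xbp1, Creb3l1, Atf4, Ddit3, Chac1 and Trib3, out of 39328 genes in a table of colon RNA. They were chosen by symbol. All 10 were found, in 11 rows of the table, because Ddit3 has a second identifier whose mean was below 0.001 FPKM and which was not used. FPKM is the number of fragments mapped to a gene, scaled by the gene's length and by the library's depth, so levels of different genes can be set side by side. The RNA came from colon of adult wild-type mice of the outbred ICR stock, with 4 libraries in each of 4 groups. DSS_CS mice had been born by cesarean section (CS) and drank 3% dextran sulfate sodium (DSS), which damages the lining of the colon, over 8 days. DSS_VD mice had been born by vaginal delivery (VD) and drank the same DSS. CON_CS and CON_VD mice, born by cesarean section and vaginally, drank normal water. Whether a library stands for 1 mouse, and from which litter, is not stated in the labels. P-values therefore reflect the variation among these libraries, which may be technical.

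The unfolded protein response is the signalling that adjusts the endoplasmic reticulum (ER) to its load of proteins to be folded. The sensors IRE1, ATF6 and PERK raise chaperones, widen the secretory machinery and slow translation. Its PERK branch shares phosphorylation of the initiation factor eIF2alpha, and the transcription factor ATF4, with the integrated stress response to amino acid shortage, heme shortage and viral RNA. In the gut it is best known from cells that secrete much protein, such as goblet cells, Paneth cells and plasma cells. mRNA levels, which are measured here, show neither the splicing of Xbp1, nor the cleavage of ATF6 or CREB3L1, nor the translation of ATF4.

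Read depth is unknown, since only FPKM was deposited, and sums of FPKM per library lay between 280135 and 343423. Genes of the epithelium were present in every library, with summed FPKM of 10 pan-epithelial markers, Epcam and Cdh1 among them, of 789 to 2372 in DSS_CS, 2237 to 4767 in DSS_VD, 4964 to 5213 in CON_CS and 4279 to 5072 in CON_VD. In such bulk samples, fewer cells of a type and less RNA per cell cannot be told apart. The libraries DSS_CS replicate 3, DSS_CS replicate 4 and CON_CS replicate 1 stood apart, because genes of the male accessory glands were present in them. The prostate gene Pbsn was at 128 and 1355 FPKM in those DSS_CS libraries, at 185 in that CON_CS library and at most 0.526 in every other library. Where a call on the 10 genes or on the pathway genes named below ended without these 3 libraries, this is stated beside it. Differences were tested with limma on log2(FPKM + 1), and a change is called where the p-value, adjusted over all genes tested, is under 0.05.

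In mice born by cesarean section DSS raised BiP, Xbp1, Atf4 and other genes of the response and lowered Creb3l1, and in mice born vaginally it raised Xbp1 and lowered Creb3l1 and Ddit3. The call of Xbp1 in mice born vaginally was lost in 10 of 14 alternative runs. The DSS response itself differed between the birth groups past the threshold for Atf4 and Ddit3, and not for the other members. Chac1 and Trib3 lay below 1 FPKM in most libraries on water and could pass the filter on low values only through the DSS libraries, so they are kept apart from the other 8 genes, which were at 1 FPKM or more in every library. Of these 8, 6 rose and 1 fell in DSS_CS against CON_CS, with a median log2 difference of 0.65, where 60.3% of 14372 tested genes passed, 34.4% rising and 25.9% falling, and their median was 0.06. In DSS_VD against CON_VD 1 of the 8 rose and 2 fell, with a median of 0.21, where 40.9% of 13933 tested genes passed, 24.0% rising and 17.0% falling, and their median was 0.06. Of the 8 genes, 6 did not overlap between the groups in DSS_CS against CON_CS, where 57.0% of tested genes did not, and 3 in DSS_VD against CON_VD, where 38.6% did not. Without the 3 libraries with Pbsn 5 rose and 1 fell in DSS_CS against CON_CS, with a median of 0.46. Over all genes, 5217 of 12324 tested passed there, 2802 rising and 2415 falling, with a median of 0.006.

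**Figure D1:**
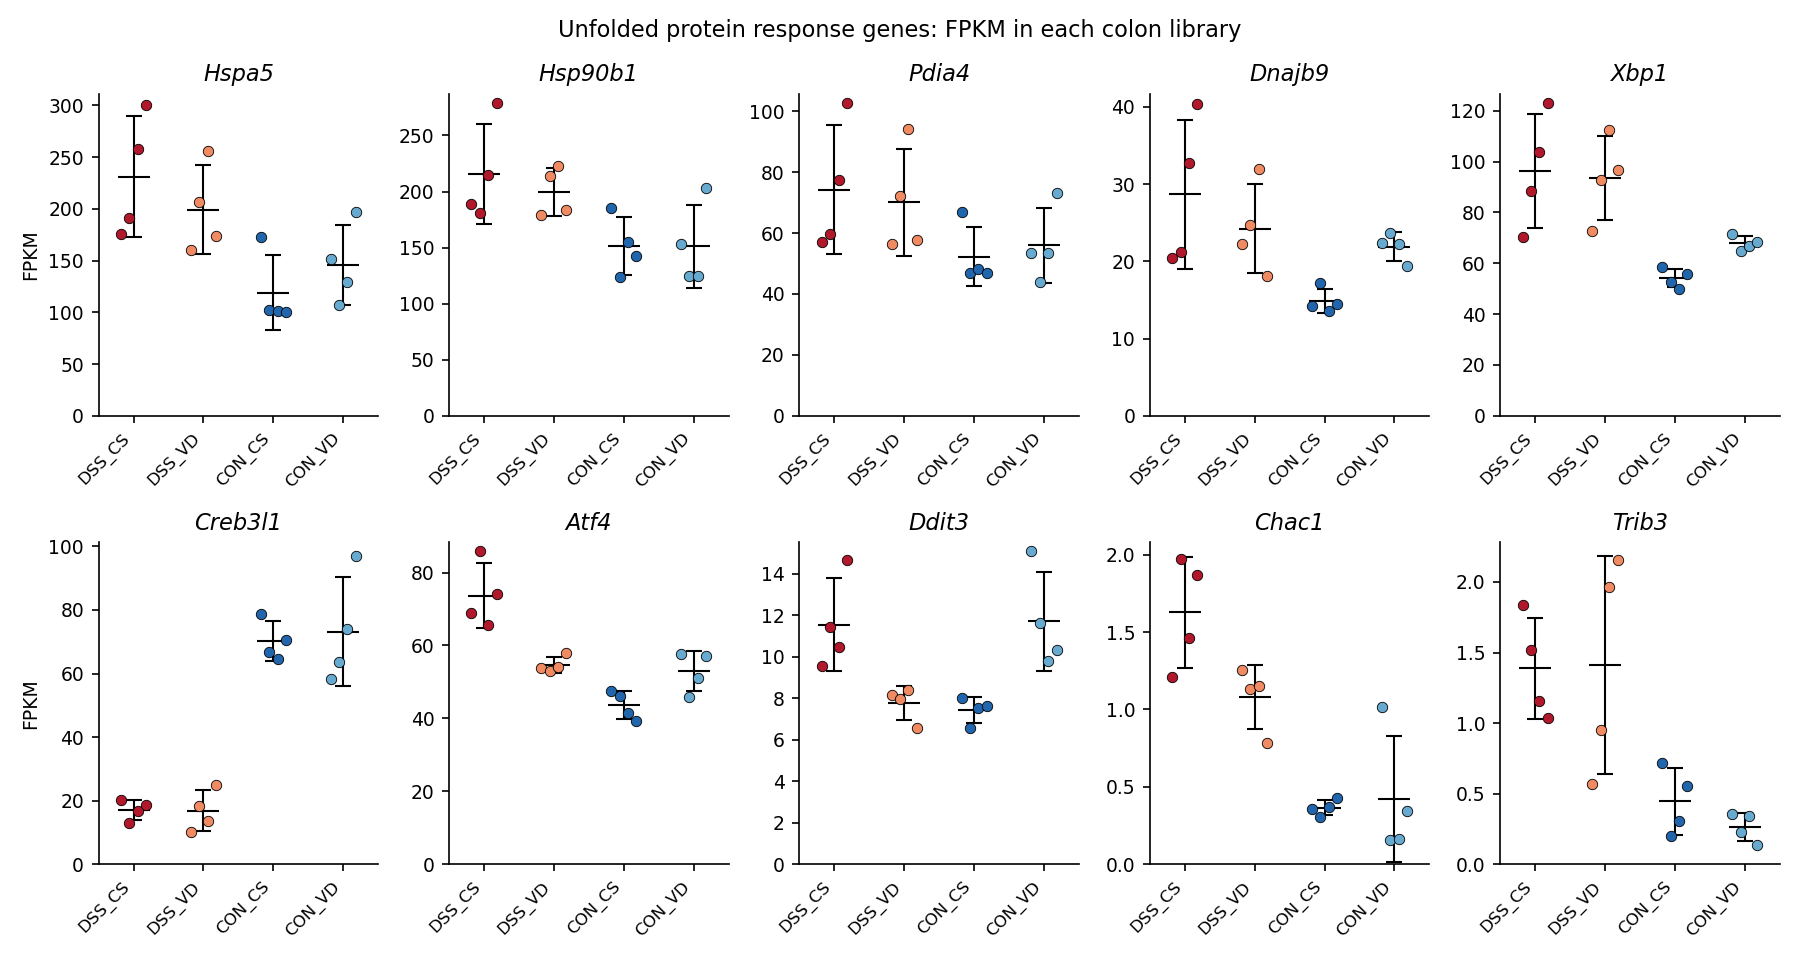
FPKM (linear axis from 0) of the 10 genes in the 4 libraries of each group, drawn from replicate 1 on the left to replicate 4 on the right, with the mean (long bar) and SD (whiskers). Creb3l1 lay between 10.3 and 25.1 FPKM in the 8 DSS libraries and between 58.3 and 97.0 in the 8 water libraries, while Atf4 and Ddit3 were higher in every DSS_CS library than in any DSS_VD library.

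The ER chaperones were the most abundant members. Hspa5 encodes BiP, the Hsp70 of the ER lumen, which binds unfolded chains and holds the sensors inactive (ENSMUSG00000026864, chromosome 2, 34771970 to 34777547, plus strand, GRCm38). It was at 175, 192, 257 and 301 FPKM in DSS_CS, 160, 207, 256 and 174 in DSS_VD, 173, 102, 101 and 100.03 in CON_CS, and 151, 107, 129 and 197 in CON_VD, in replicate order. Every DSS_CS library was above every CON_CS library, while the DSS_VD and CON_VD libraries overlapped. Hspa5 rose by a log2 of 0.96 ± 0.23 (SE) in DSS_CS against CON_CS (adjusted p = 0.00633), and by 0.85 (adjusted p = 0.00455) without the libraries with Pbsn. The DSS_VD libraries differed from CON_VD by 0.46 ± 0.22 (95% interval -0.03 to 0.95, adjusted p = 0.125), and by 0.61 with an adjusted p of 0.0413 without CON_VD replicate 4. Between DSS_CS and DSS_VD the difference was 0.20, with an interval of -0.30 to 0.70, and -0.10 without the libraries with Pbsn.

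Hsp90b1 encodes GRP94, the Hsp90 of the ER, which folds integrins and Toll-like receptors (ENSMUSG00000020048, chromosome 10, 86690209 to 86705509, minus strand). Its values were 189, 181, 215 and 279 FPKM in DSS_CS, 179, 214, 222 and 183 in DSS_VD, 185, 123, 155 and 142 in CON_CS, and 153, 125, 125 and 203 in CON_VD. The highest water library of each birth group reached into the range of the DSS libraries. Hsp90b1 rose by 0.50 ± 0.17 in DSS_CS against CON_CS (adjusted p = 0.0321), a call that was lost without CON_CS replicate 2, 3 or 4, without DSS_CS replicate 3 or 4 and without the libraries with Pbsn, with adjusted p-values of 0.0601 to 0.0915. It was also lost with no filter (adjusted p = 0.0670) and with median-of-ratios scaling (adjusted p = 0.0814). Between DSS_VD and CON_VD the difference was 0.42 ± 0.18 (adjusted p = 0.0896), and 0.57 (adjusted p = 0.0153) without CON_VD replicate 4.

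Pdia4 encodes ERp72, a disulfide isomerase of the ER (ENSMUSG00000025823, chromosome 6, 47796141 to 47813430, minus strand). It was at 57.0, 59.7, 77.4 and 102.8 FPKM in DSS_CS, 56.5, 72.0, 94.1 and 57.8 in DSS_VD, 66.8, 47.0, 48.2 and 46.8 in CON_CS, and 53.6, 43.8, 53.3 and 73.2 in CON_VD. CON_CS replicate 1 stood above the other CON_CS libraries and within the DSS range. Pdia4 differed by 0.48 ± 0.20 in DSS_CS against CON_CS (adjusted p = 0.0697), and it passed without CON_CS replicate 1 (adjusted p = 0.0359) or without DSS_CS replicate 1 (adjusted p = 0.0371). For DSS_VD against CON_VD the difference was 0.31 ± 0.20 (adjusted p = 0.253).

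Dnajb9 encodes ERdj4, a J-domain partner of BiP that helps to keep IRE1 inactive (ENSMUSG00000014905, chromosome 12, 44205559 to 44210326, minus strand). Its values were 20.4, 21.2, 32.8 and 40.4 FPKM in DSS_CS, 22.2, 24.7, 31.9 and 18.1 in DSS_VD, 14.2, 17.2, 13.6 and 14.5 in CON_CS, and 22.4, 23.7, 22.3 and 19.4 in CON_VD. The CON_CS libraries were the lowest of all, below every library of the other 3 groups. Dnajb9 rose by 0.85 ± 0.21 in DSS_CS against CON_CS (adjusted p = 0.00715). The rise was 0.44 (adjusted p = 0.0428) without the libraries with Pbsn. Its difference in DSS_VD against CON_VD was 0.12 ± 0.16 (adjusted p = 0.604), with an interval of -0.25 to 0.48. The 2 DSS responses of Dnajb9 differed by 0.74 ± 0.28 (interval 0.14 to 1.33), which did not pass (adjusted p = 0.0905, limma). Over 22 alternatives that adjusted p ran from 0.0398 to 0.434.

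The promoters of Hspa5 and Hsp90b1 are shown because they hold the element by which ATF6 and XBP1 raise ER chaperones, the ER stress response element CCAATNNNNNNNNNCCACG. It was searched on both strands from 250 bases before to 50 after the RefSeq start (GRCm38.p6), and it occurred in 39 of 32851 promoters (0.119%) and in 2 of the 9 members with a promoter sequence. The search also covered ER stress response element II (0.0365% of promoters), the UPR element TGACGTGG (0.676%) and the cAMP response element TGACGTCA (1.79%), which occurred in no member's window. The 250 bases before the start are given 5′ to 3′ on the gene's strand with the element in capitals. Hspa5 is at chr2:34771840-34772089 on the plus strand and has the element at position -65. Hsp90b1 is at chr10:86705445-86705694 on the minus strand and has it at -212, and in reverse at -107.
Hspa5: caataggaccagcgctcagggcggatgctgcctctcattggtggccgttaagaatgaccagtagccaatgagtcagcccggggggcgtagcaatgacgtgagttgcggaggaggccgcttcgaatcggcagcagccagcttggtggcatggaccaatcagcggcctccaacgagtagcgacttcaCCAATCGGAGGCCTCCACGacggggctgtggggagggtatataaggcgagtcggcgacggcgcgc
Hsp90b1: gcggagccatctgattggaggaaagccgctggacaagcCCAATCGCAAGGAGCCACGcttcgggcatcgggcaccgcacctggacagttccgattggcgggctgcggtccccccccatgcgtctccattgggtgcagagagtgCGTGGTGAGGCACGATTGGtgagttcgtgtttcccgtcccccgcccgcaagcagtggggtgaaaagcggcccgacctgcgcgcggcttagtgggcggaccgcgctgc

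Xbp1 and Creb3l1, which encode transcription factors of the ER branch, moved in opposite directions under DSS. Xbp1, whose mRNA is spliced by IRE1 to yield the active factor of secretory cells, lies on chromosome 11 (ENSMUSG00000020484, 5520659 to 5525893, plus strand). It was at 70.4, 88.3, 103.7 and 123 FPKM in DSS_CS, 72.5, 92.9, 112.5 and 96.6 in DSS_VD, 58.5, 52.7, 49.9 and 55.8 in CON_CS, and 71.7, 64.9, 66.8 and 68.5 in CON_VD. In both birth groups every DSS library was above every water library. Xbp1 rose by 0.79 ± 0.16 in DSS_CS against CON_CS (adjusted p = 0.00254), and by 0.57 (adjusted p = 0.0270) without the libraries with Pbsn. It also rose in DSS_VD against CON_VD, by 0.44 ± 0.14 (adjusted p = 0.0327), a call that held without DSS_VD replicate 1 and was lost without any other single library, with adjusted p-values of 0.0505 to 0.0889. In all, this call was lost in 10 of 14 alternatives, median-of-ratios scaling among them, with adjusted p-values up to 0.103. DSS_CS and DSS_VD differed by 0.03, with an interval of -0.43 to 0.48, and by -0.23 without the libraries with Pbsn.

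Creb3l1 encodes OASIS, a factor anchored in the ER membrane that is known in mice from the final differentiation of goblet cells in the large intestine and from collagen secretion in bone (ENSMUSG00000027230, chromosome 2, 91982328 to 92024502, minus strand). It was at 20.2, 13.1, 16.6 and 18.7 FPKM in DSS_CS, 10.3, 18.2, 13.5 and 25.1 in DSS_VD, 78.9, 66.8, 64.7 and 70.5 in CON_CS, and 58.3, 63.6, 73.9 and 97.0 in CON_VD. The DSS and water libraries were far apart in both birth groups, with mean levels in DSS at 0.244 times those on water in CS mice and 0.229 times in VD mice. Creb3l1 fell by 1.99 ± 0.14 in DSS_CS against CON_CS (adjusted p = 4.01e-06) and by 2.10 ± 0.26 in DSS_VD against CON_VD (adjusted p = 2.97e-04). Between DSS_CS and DSS_VD the difference was 0.08 (interval -0.50 to 0.66), and between CON_CS and CON_VD -0.04 (interval -0.38 to 0.31). The fall was called in every alternative run, with log2 values of -2.31 to -1.87 over both birth groups.

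Goblet cell markers moved with Creb3l1 under DSS. Their summed FPKM over 10 genes, Muc2, Clca1 and Spdef among them, was 354 to 1082 in DSS_CS, 1732 to 4264 in DSS_VD, 3943 to 5575 in CON_CS and 6238 to 9309 in CON_VD, with no marker at 0. In DSS_CS against CON_CS 9 of 10 fell, beside 25.9% of all tested genes, and in DSS_VD against CON_VD 10 of 10 fell, beside 17.0%. Their summed level in every DSS_CS library was below that in every DSS_VD library, while Creb3l1 overlapped between those groups. In DSS_CS against DSS_VD 5 of the 10 markers were lower past the threshold, beside 793 of 14313 tested genes. Without the libraries with Pbsn the smallest adjusted p of these markers was 0.092 (Spdef), and 6 of 13756 tested genes passed. Falls were not limited to goblet cell markers. Of the 10 pan-epithelial markers 10 fell in DSS_CS against CON_CS and 4 in DSS_VD against CON_VD. Between DSS_CS and DSS_VD 6 of them were lower in DSS_CS, and without the libraries with Pbsn their smallest adjusted p was 0.138 (Vil1). The 8 fibroblast markers rose in both birth groups, where 34.4% of all tested genes rose in CS and 24.0% in VD mice. Their summed FPKM was 1275 to 1664 in DSS_CS, 448 to 966 in DSS_VD, 228 to 292 in CON_CS and 209 to 233 in CON_VD. The part of these cells in the fall of Creb3l1 was not tested.

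**Figure D2:**
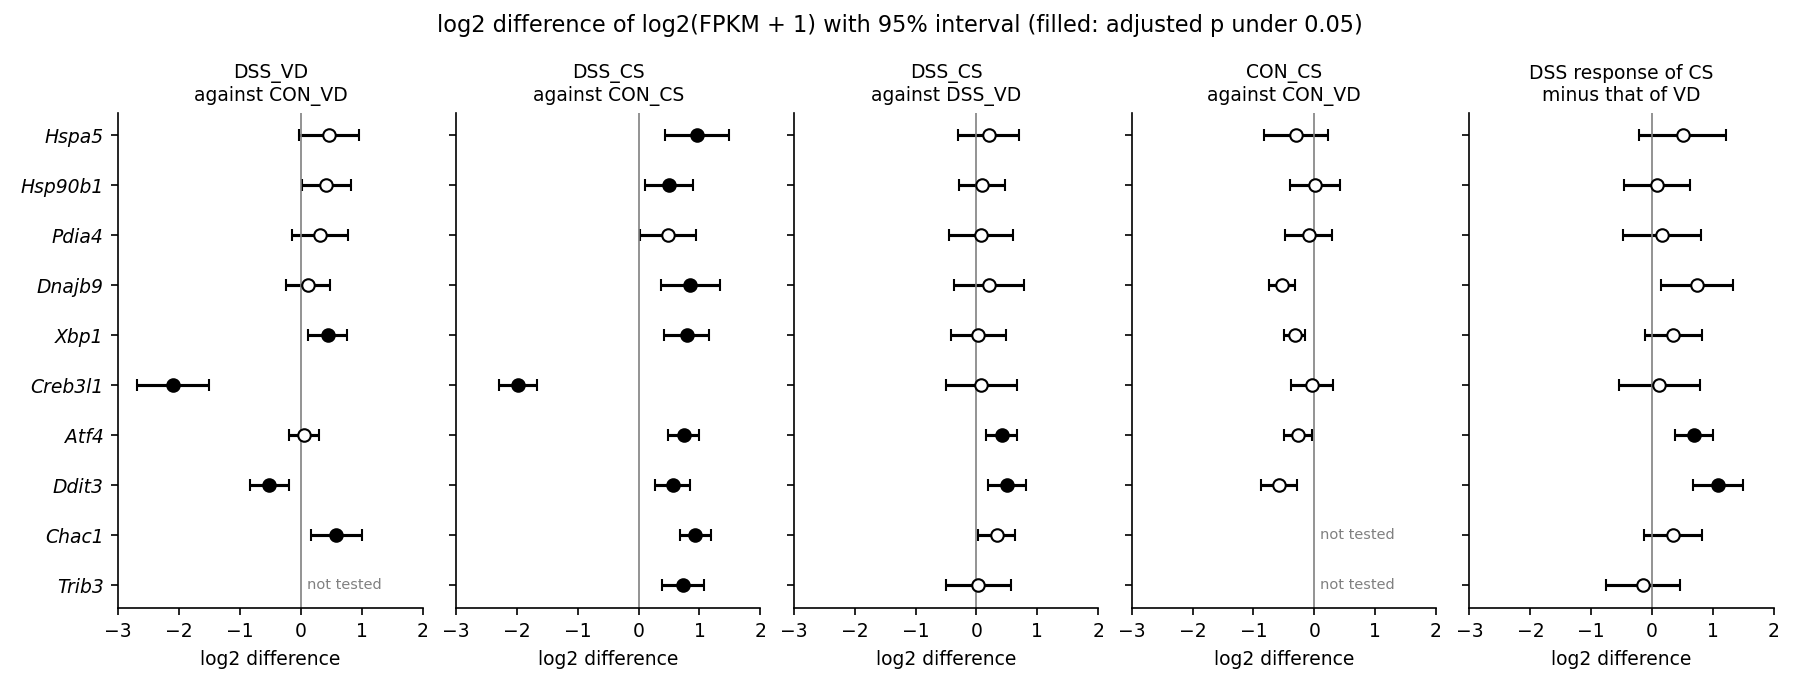
Log2 difference of log2(FPKM + 1) of the 10 genes (rows) in 4 comparisons of groups and in the difference between the DSS responses of CS and VD mice, with 95% intervals from limma, where filled points have an adjusted p under 0.05. In the last panel Atf4 at 0.69 and Ddit3 at 1.08 are the filled points.

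Atf4 and Ddit3 responded to DSS differently in the birth groups. Atf4, the transcription factor made when eIF2alpha is phosphorylated, lies on chromosome 15 (ENSMUSG00000042406, 80255184 to 80257541, plus strand). It was at 69.0, 86.1, 65.6 and 74.0 FPKM in DSS_CS, 53.7, 53.0, 54.0 and 58.1 in DSS_VD, 47.6, 46.03, 41.6 and 39.4 in CON_CS, and 57.8, 46.01, 51.2 and 57.1 in CON_VD. All DSS_CS libraries were above all other libraries, and the DSS_VD and CON_VD libraries overlapped. Atf4 rose by 0.74 ± 0.11 in DSS_CS against CON_CS (adjusted p = 3.77e-04) and differed by 0.05 ± 0.11 in DSS_VD against CON_VD (adjusted p = 0.744). The difference between these responses was 0.69 ± 0.14 (interval 0.380 to 0.998, adjusted p = 0.0121), and 0.80 (adjusted p = 0.0321) without the libraries with Pbsn. Part of it lay on water, where Atf4 differed by -0.27 ± 0.10 between CON_CS and CON_VD (adjusted p = 0.203) with overlapping libraries.

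Ddit3 encodes CHOP, a transcription factor known from stress-induced cell death (ENSMUSG00000025408, chromosome 10, 127290774 to 127296288, plus strand). It was at 9.57, 11.4, 10.5 and 14.7 FPKM in DSS_CS, 8.18, 7.99, 8.38 and 6.59 in DSS_VD, 8.04, 6.55, 7.52 and 7.62 in CON_CS, and 15.1, 11.6, 9.81 and 10.3 in CON_VD. DSS_CS and CON_VD were the high groups, and DSS_VD and CON_CS the low ones, and neither high group overlapped either low group. Ddit3 rose by 0.56 ± 0.13 in DSS_CS against CON_CS (adjusted p = 0.00451) and fell by 0.52 ± 0.14 in DSS_VD against CON_VD (adjusted p = 0.0169). These responses differed by 1.08 ± 0.19 (interval 0.67 to 1.49, adjusted p = 0.00849), and by 1.0015 (adjusted p = 0.0298) without the libraries with Pbsn. Part of the difference lay on water, where Ddit3 was lower in all 4 CON_CS libraries than in any CON_VD library (log2 -0.58 ± 0.13, adjusted p = 0.0926).

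The differences between responses of Atf4 and Ddit3 passed in each of the 22 alternatives run, with log2 values of 0.61 to 0.80 for Atf4 and 0.96 to 1.18 for Ddit3. They were 2 of the 8 members at 1 FPKM or more in every library, where 13.2% of 15233 tested genes passed for this difference and 6.68% passed in the same direction. Ddit3 overlaps the methionyl-tRNA synthetase gene, listed here as Mars1, on the other strand. The sources used here do not give the strandedness of the libraries, so reads of both genes cannot be told apart. Mars1 averaged 15.1 FPKM in DSS_CS, 12.6 in DSS_VD, 9.71 in CON_CS and 7.72 in CON_VD, and its DSS responses differed by -0.03 ± 0.20 between the birth groups.

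Under DSS itself, Atf4 and Ddit3 were the 2 of the same 8 members that were higher in DSS_CS than in DSS_VD, where 13.4% of 14313 tested genes passed and 7.89% were higher. Atf4 was higher by 0.42 ± 0.11 (adjusted p = 0.0438) and Ddit3 by 0.50 ± 0.14 (adjusted p = 0.0470), and for both genes all 4 DSS_CS libraries were above all 4 DSS_VD libraries. Ranges were apart in this direction for 15.3% of all genes tested. Leaving out any single library of the 8 ended the call of Atf4 (adjusted p of 0.0532 to 0.104), and of these settings Ddit3 passed only without DSS_CS replicate 1, with adjusted p-values up to 0.111 in the others. Without the libraries with Pbsn the differences were 0.49 for Atf4 (adjusted p = 0.140) and 0.39 for Ddit3 (adjusted p = 0.183). The count over all genes was itself sensitive to the libraries used. It was 1923 genes in all, and 6 of 13756 tested without the libraries with Pbsn. It was 0 without DSS_VD replicate 1, where limma gave 4264 genes an unadjusted p under 0.05. Chac1 differed by 0.33 ± 0.13 (adjusted p = 0.119).

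Chac1 and Trib3, both targets of ATF4, were the least abundant members. Chac1 encodes an enzyme that degrades glutathione (ENSMUSG00000027313, chromosome 2, 119351229 to 119354381, plus strand). It was at 1.21, 1.97, 1.46 and 1.87 FPKM in DSS_CS, 1.26, 1.13, 1.15 and 0.783 in DSS_VD, 0.356, 0.308, 0.371 and 0.430 in CON_CS, and 1.02, 0.154, 0.166 and 0.346 in CON_VD. Every DSS_CS library was above every CON_CS library, and CON_VD replicate 1 reached into the range of DSS_VD. In DSS_CS against CON_CS it passed the filter only through the DSS_CS libraries, so a difference was built into being tested, and it could not be tested with any of them left out. With that limit Chac1 rose by 0.93 ± 0.11 (adjusted p = 1.01e-04, and 5.18e-04 with no filter). It rose by 0.58 ± 0.19 in DSS_VD against CON_VD (adjusted p = 0.0334), where the call was lost without CON_VD replicate 2, 3 or 4, with adjusted p-values of 0.0656 to 0.0918, and Chac1 fell below the filter without CON_VD replicate 1 or DSS_VD replicate 1, 2 or 3. In all, this call was lost in 5 of the 10 alternatives that could test it, median-of-ratios scaling among them. On this scale, with 1 added to the FPKM, changes of such low genes are understated.

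Trib3 encodes a pseudokinase that binds ATF4 and AKT (ENSMUSG00000032715, chromosome 2, 152337422 to 152344032, minus strand). It was at 1.83, 1.52, 1.16 and 1.04 FPKM in DSS_CS, 0.566, 0.953, 1.97 and 2.15 in DSS_VD, 0.717, 0.200, 0.308 and 0.557 in CON_CS, and 0.354, 0.227, 0.340 and 0.137 in CON_VD. DSS and water libraries did not overlap within either birth group. Like Chac1, it passed the filter in DSS_CS against CON_CS only through the DSS_CS libraries and could not be tested with any of them left out. With the same limit Trib3 rose by 0.73 ± 0.15 (adjusted p = 0.00268, and 0.00846 with no filter). In DSS_VD against CON_VD it was below the filter, and the difference of 0.87 gave an exact permutation p of 0.0286, the smallest possible with 4 libraries in each group. The difference between DSS_CS and DSS_VD was 0.03, with an interval of -0.50 to 0.57.

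The promoters of Chac1 and Ddit3 are shown because both genes are known ATF4 targets, and the DSS response differed between birth groups past the threshold for Ddit3 and not for Chac1 (0.35 ± 0.22, adjusted p = 0.316). The element of C/EBP and ATF4 dimers was searched as TGATGNAA on both strands, which 3.97% of all promoter windows hold. Of the 9 members with a window, Chac1 had a match at position -193 and Trib3 one at 15, in both cases in reverse. Ddit3 had no match in this window, nor did Atf4. The 250 bases before the start are given as above, with the match in capitals, for Chac1 at chr2:119350992-119351241 and Ddit3 at chr10:127290543-127290792, both on the plus strand.
Chac1: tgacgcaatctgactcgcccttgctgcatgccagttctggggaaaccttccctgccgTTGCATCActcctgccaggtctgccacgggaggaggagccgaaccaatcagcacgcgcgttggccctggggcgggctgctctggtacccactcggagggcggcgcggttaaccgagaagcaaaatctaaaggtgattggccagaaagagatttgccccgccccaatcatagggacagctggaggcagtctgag
Ddit3: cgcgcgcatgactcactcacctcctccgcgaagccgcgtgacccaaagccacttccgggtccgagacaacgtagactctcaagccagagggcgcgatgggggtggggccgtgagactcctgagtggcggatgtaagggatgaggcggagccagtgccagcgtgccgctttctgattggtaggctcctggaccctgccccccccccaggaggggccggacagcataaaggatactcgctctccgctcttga

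On normal water no member differed between CON_CS and CON_VD past the threshold, where 0.407% of 13275 genes did (24 higher and 30 lower in CON_CS, or 23 and 46 with median-of-ratios scaling), and Chac1 and Trib3 were below the filter. With limma 4 of the 8 tested members, Xbp1, Dnajb9, Ddit3 and Atf4, had an unadjusted p under 0.05, beside 2598 of the 13275 genes. Among the 8, 7 had a negative log2 difference, with a median of -0.29 beside 0.03 over all genes tested. Xbp1, Dnajb9 and Ddit3 were lower in all 4 CON_CS libraries than in any CON_VD library, a separation that 4.41% of tested genes showed in this direction. Their limma differences were -0.32 ± 0.08 for Xbp1 (adjusted p = 0.107), -0.53 ± 0.10 for Dnajb9 (adjusted p = 0.0632) and the value given above for Ddit3. Dnajb9 passed without CON_VD replicate 4 (adjusted p = 0.0290) or without CON_CS replicate 2 (adjusted p = 0.0461). For the other members the intervals were -0.82 to 0.22 for Hspa5, -0.40 to 0.43 for Hsp90b1, -0.48 to 0.30 for Pdia4 and -0.50 to -0.04 for Atf4. In exact permutation tests Chac1 gave p = 0.971 and Trib3 p = 0.257.

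Summed markers of B cells and plasma cells, the plasma cell having a large ER, did not overlap between these groups. The summed FPKM of 10 B cell and plasma cell markers, Jchain, Mzb1 and Igkc among them, was 321 to 1494 in CON_CS and 2283 to 3587 in CON_VD, with no marker at 0 in either group. Of the 7 markers tested 1 was lower in CON_CS, Mzb1 (-1.76 ± 0.29, adjusted p = 0.0457, and 0.108 without CON_CS replicate 1), and none was higher. Under DSS the sums were 2557 to 11136 in DSS_CS and 5029 to 10372 in DSS_VD. The libraries with the highest sums, DSS_CS replicate 4 and DSS_VD replicate 3, were also those with the highest Hspa5, Pdia4, Xbp1 and Dnajb9 in their groups. Other libraries did not match. DSS_CS replicate 3 had the lowest sum of its group (2557) with Hspa5 at 257 FPKM, and DSS_CS replicate 2 a sum of 7311 with Hspa5 at 192. CON_CS replicate 2 had the highest sum of its group (1494) with Hspa5 at 102. The libraries with Pbsn also had the highest Hspa5 of their groups. In CON_CS replicate 1 Hspa5 stood at 173 FPKM, against 100.03 to 102 in the other CON_CS libraries, while its B and plasma cell sum was 346. The part of plasma cells and of gland tissue in these levels was not tested, beyond the values given without those libraries.

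**Figure D3:**
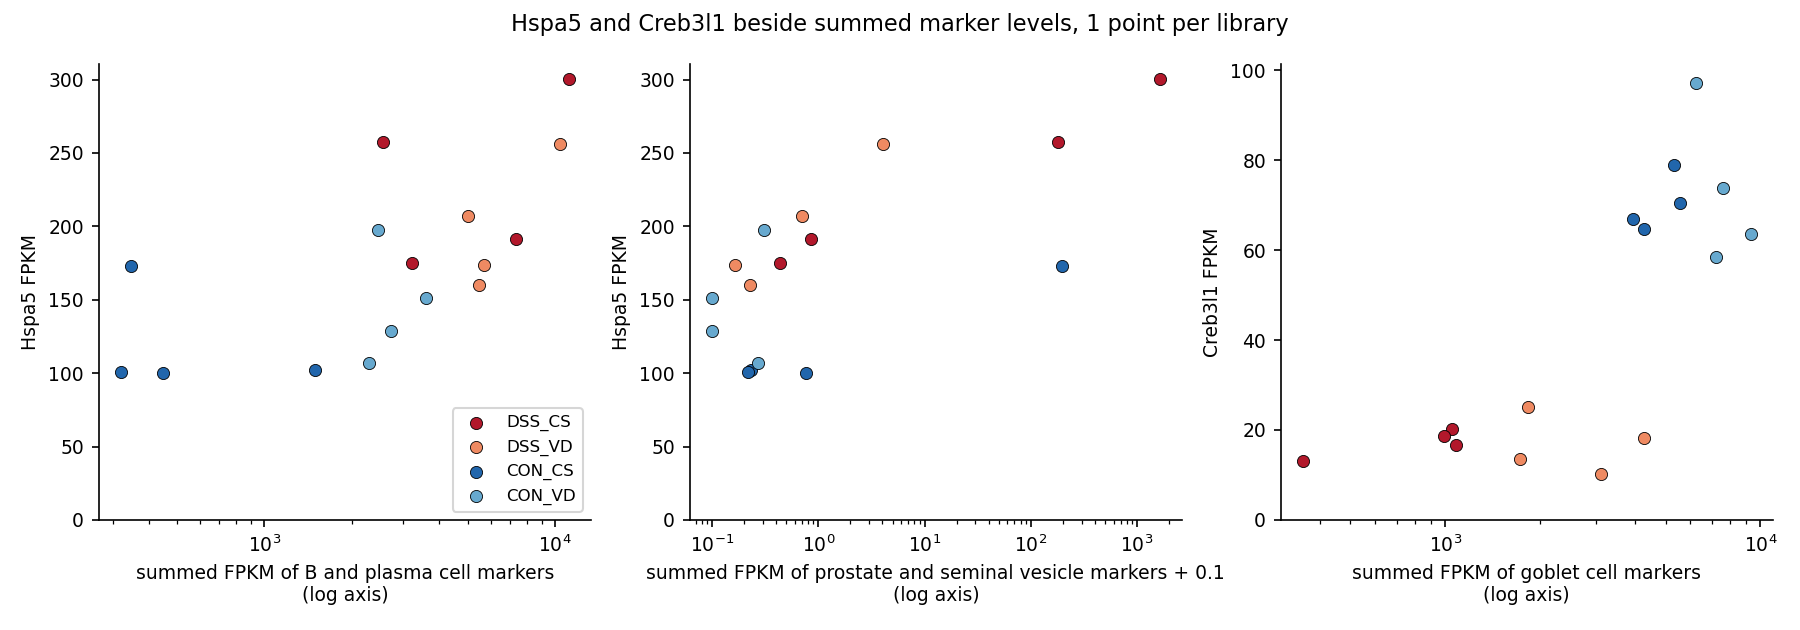
Hspa5 and Creb3l1 in FPKM (vertical, linear) against summed FPKM of marker lists (horizontal, log axis, with 0.1 added to the prostate and seminal vesicle sum), with 1 point per library. The highest Hspa5, 301 FPKM in DSS_CS replicate 4, is at the highest sums of B and plasma cell markers (11136) and of prostate and seminal vesicle markers (1627), and Creb3l1 forms a low DSS and a high water group.

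The sensors and other transducers of the pathway were described from a list of 11 genes. In DSS_CS against CON_CS 4 of 10 tested rose and 2 fell, and in DSS_VD against CON_VD 4 of 11 rose and 2 fell, Ern2 and Creb3l4 being those that fell in both. These calls were 60.0% of the list in CS mice, beside 60.3% of all tested genes, and 54.5% in VD mice, beside 40.9%. The share in CS mice counts Creb3l4 and that in VD mice Creb3l3. Each passed the filter there only through the group where it was higher, so part of these shares was built into being tested. In DSS_CS against CON_CS 2 of 9 rose and 1 fell without the libraries with Pbsn, where 2802 of 12324 tested genes rose and 2415 fell. Ern2 encodes IRE1beta, the form of IRE1 found in mucus-secreting epithelium, and it averaged 1.58 ± 0.60 FPKM in DSS_CS, 4.26 ± 1.25 in DSS_VD, 22.4 ± 3.25 in CON_CS and 19.8 ± 5.35 in CON_VD (SD, n = 4 each). It fell by 3.20 ± 0.19 in DSS_CS against CON_CS and by 1.98 ± 0.23 in DSS_VD against CON_VD, and it was lower in DSS_CS than in DSS_VD (-1.03 ± 0.23, adjusted p = 0.0337). Creb3l4, a relative of Creb3l1, fell by 2.31 ± 0.18 in CS mice and by 1.75 ± 0.24 in VD mice. In CS mice it passed the filter only through the CON_CS libraries, so a difference was built into being tested. Without the libraries with Pbsn it was below the filter in CS mice. Atf6, the ATF6 sensor gene, rose by 0.60 in CS and 0.54 in VD mice. Its relative Atf6b rose in both, but not in CS mice without the libraries with Pbsn (adjusted p = 0.0703). Other relatives of Creb3l1 rose, Creb3l2 by 1.28 ± 0.15 in DSS_CS against CON_CS, and Creb3l3 by 1.45 ± 0.16 in DSS_VD against CON_VD, where it passed the filter only through the DSS_VD libraries. In DSS_CS against DSS_VD Creb3l2 was higher (0.66 ± 0.15) and Creb3l3 lower (-0.80 ± 0.21). There too Creb3l3 passed the filter only through the DSS_VD libraries, so a difference was built into being tested. With Ern2 these calls were 27.3% of the list, beside 13.4% of all tested genes. Because this share counts Creb3l3, part of it was built into being tested. None of 10 sensors passed between these groups without the libraries with Pbsn, with adjusted p-values of 0.118 for Ern2, 0.170 for Creb3l2 and 0.199 for Creb3l3. Over all genes 6 of 13756 tested passed in that setting. The DSS responses of Ern2 and Creb3l2 differed between birth groups, by -1.23 ± 0.32 (adjusted p = 0.0246) and 0.80 ± 0.21 (adjusted p = 0.0276). These calls were 18.2% of the list, beside 13.2% of all tested genes. Without the libraries with Pbsn none of the 11 passed for this difference, with adjusted p-values of 0.0682 for Ern2 and 0.0835 for Creb3l2. Over all genes 637 of 14820 tested passed in that setting.

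Of 24 further ER chaperones and folding enzymes, 15 rose and 1 fell in DSS_CS against CON_CS, and 6 rose and 2 fell in DSS_VD against CON_VD. The medians of these 24 genes were 0.45 and 0.28, beside 0.06 over all genes in each comparison. The calls were 66.7% and 33.3% of the list, beside 60.3% and 40.9% of all tested genes. Fkbp14, a prolyl isomerase that acts on collagen, rose by 1.21 ± 0.09 in CS mice, and the ER oxidase Ero1b by 0.98 ± 0.16 in CS and 1.20 ± 0.13 in VD mice. Ero1a, the other ER oxidase, rose by 1.38 ± 0.13 in VD mice. In the other birth group, Fkbp14 averaged 4.05 FPKM in DSS_VD and 2.20 in CON_VD, and Ero1a 17.3 in DSS_CS and 11.9 in CON_CS. Pdia5, a disulfide isomerase, went the other way, averaging 5.86 ± 0.94 FPKM in DSS_CS, 4.81 ± 0.63 in DSS_VD, 12.1 ± 1.19 in CON_CS and 15.1 ± 1.93 in CON_VD. It fell by 0.94 ± 0.12 in CS and by 1.47 ± 0.12 in VD mice. Between DSS_CS and DSS_VD 1 of 24 passed (4.17%, beside 13.4% of all tested genes), Fkbp14, which was higher by 0.56 ± 0.13 (adjusted p = 0.0343). The response differed between birth groups for Fkbp14, Pdia5 and Fkbp2, by 0.56 ± 0.16, 0.54 ± 0.17 and 0.48 ± 0.15. These calls were 12.5% of the list, beside 13.2% of all tested genes. Without the libraries with Pbsn 9 of 23 rose and 1 fell in DSS_CS against CON_CS, and none of 24 passed between DSS_CS and DSS_VD (Fkbp14 at an adjusted p of 0.157) or in the difference of responses. Over all tested genes, 2802 of 12324 rose and 2415 fell in the first of these. In the second 6 of 13756 passed, and in the third 637 of 14820.

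ER-associated degradation returns misfolded proteins to the cytosol, and the translocon and ER export machinery brings proteins in and onward. Of 19 degradation genes 9 rose and 1 fell in DSS_CS against CON_CS (52.6% of the list, beside 60.3% of all tested genes). In DSS_VD against CON_VD 5 rose (26.3%, beside 40.9%). Derl3, a derlin that is high in plasma cells, averaged 7.48 ± 7.69 FPKM in DSS_CS, 7.15 ± 4.09 in DSS_VD, 0.792 ± 0.31 in CON_CS and 1.96 ± 0.24 in CON_VD, and it rose by 1.35 ± 0.28 in DSS_VD against CON_VD. Among ubiquitin-conjugating enzyme genes, Ube2g2 rose by 1.05 ± 0.11 in CS mice and Ube2j1 by 0.45 ± 0.11 in VD mice. Genes are named for the birth group where their p was among the smallest, and their means could be higher in the other too. Ube2j1 averaged 22.1 FPKM in DSS_CS and 15.8 in CON_CS, and Ube2g2 26.5 in DSS_VD and 22.3 in CON_VD. Selenok, a selenoprotein of the ER membrane, and the ATPase Vcp rose in CS mice, Selenok by 0.82 ± 0.10 and Vcp by 0.47 ± 0.10, and Edem1, which handles misfolded glycoproteins, by 0.45 ± 0.12 in VD mice. Of 24 translocon and export genes 15 rose in DSS_CS against CON_CS (62.5%, beside 60.3% of all tested genes), those of smallest p being Tram1 (0.79 ± 0.11), Sec61g (0.76 ± 0.13) and the coat protein gene Sec24d (0.84 ± 0.14). The 3 that rose in DSS_VD against CON_VD (12.5%, beside 40.9%) were Sec24d (0.38 ± 0.13), Ssr3 (0.34 ± 0.11) and Ssr1 (0.31 ± 0.11).

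None of these degradation or translocon genes passed between DSS_CS and DSS_VD. There limma gave 2 of 19 degradation and 5 of 24 translocon genes an unadjusted p under 0.05, beside 4698 of 14313 genes over all tested. The smallest p belonged to Ube2g2 (0.29 ± 0.13, adjusted p = 0.150) and to Sec31a (0.34 ± 0.11, adjusted p = 0.0692). The DSS responses of Ube2g2, Selenos and Tram1 differed between birth groups, by 0.82 ± 0.17, 0.61 ± 0.18 and 0.52 ± 0.16. These calls were 10.5% of the degradation list and 4.17% of the translocon list, beside 13.2% of all tested genes. Without the libraries with Pbsn 4 of 18 degradation genes and 8 of 24 translocon genes rose in DSS_CS against CON_CS, and none passed for the difference of responses. Over all tested genes 2802 of 12324 rose in the former, and 637 of 14820 passed for the latter.

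Of 40 genes of the integrated stress response, 16 of 37 tested rose and 6 fell in DSS_CS against CON_CS, and 15 of 38 rose and 3 fell in DSS_VD against CON_VD. These calls were 59.5% and 47.4% of the list, beside 60.3% and 40.9% of all tested genes. Of 35 tested without the libraries with Pbsn, 13 rose and 2 fell in DSS_CS against CON_CS, where 2802 of 12324 tested genes rose and 2415 fell. Cebpb, a transcription factor of acute inflammation that also pairs with ATF4, averaged 71.4 ± 14.0 FPKM in DSS_CS, 37.9 ± 8.58 in DSS_VD, 5.99 ± 1.64 in CON_CS and 8.22 ± 1.97 in CON_VD. It rose by 3.38 ± 0.20 in CS mice and by 2.08 ± 0.20 in VD mice. Ppp1r15a, the phosphatase subunit that removes phosphate from eIF2alpha, rose by 1.75 ± 0.10 and 1.57 ± 0.15 in CS and VD mice. Cth, which makes cysteine, fell in both, by 2.63 ± 0.21 in CS and by 2.24 ± 0.20 in VD mice. Between DSS_CS and DSS_VD 3 of 38 were higher and none lower, namely Atf5 (0.91 ± 0.15, adjusted p = 0.0313), Cebpb (0.90 ± 0.20, adjusted p = 0.0339) and the mitochondrial enzyme gene Pck2 (0.40 ± 0.10, adjusted p = 0.0377). Over all tested genes 13.4% passed and 7.89% were higher. None of 37 passed without the libraries with Pbsn, with adjusted p-values of 0.0700 for Atf5, 0.175 for Cebpb and 0.132 for Pck2. Over all genes 6 of 13756 tested passed in that setting.

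The DSS responses differed between birth groups for 5 of 39 tested genes of the integrated stress response, 4 higher in CS mice and 1 lower, which is 12.8% of the list beside 13.2% of all tested genes. Atf5, a relative of Atf4 that is controlled in a similar way, was at 47.3, 62.7, 46.7 and 40.05 FPKM in DSS_CS, 25.9, 21.4, 29.3 and 25.1 in DSS_VD, 13.0, 13.2, 12.7 and 16.3 in CON_CS, and 18.4, 14.9, 14.5 and 12.7 in CON_VD. The water groups overlapped and all DSS_CS libraries were above all DSS_VD libraries. Its responses differed by 1.03 ± 0.20 (adjusted p = 0.0110), and by 1.17 (adjusted p = 0.0223) without the libraries with Pbsn. Those of Cebpb differed by 1.30 ± 0.30 (adjusted p = 0.0164) and those of Sesn2, a sestrin that restrains mTORC1, by 0.56 ± 0.15 (adjusted p = 0.0289). Slc3a2 (0.61 ± 0.18) and the tryptophanyl-tRNA synthetase gene Wars (-1.14 ± 0.31) also passed, and are named here after their values were seen. Without the libraries with Pbsn Atf5 was the 1 of 38 that passed, beside 637 of 14820 tested genes, and the adjusted p of Cebpb was 0.0546. Neutrophil markers, which include no gene of these lists, had summed FPKM of 728 to 1297 in DSS_CS, 125 to 633 in DSS_VD, 0.335 to 0.898 in CON_CS and 0.174 to 0.965 in CON_VD. In 4 of 6 neutrophil markers the DSS responses also differed between birth groups, beside 13.2% of all tested genes. Without the libraries with Pbsn this held for Csf3r (adjusted p = 0.0322), and not for Cxcr2 (0.0637), S100a9 (0.0904) or S100a8 (0.136). The part of these cells in the results on Atf4, Atf5 and Cebpb was not tested.

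**Figure D4:**
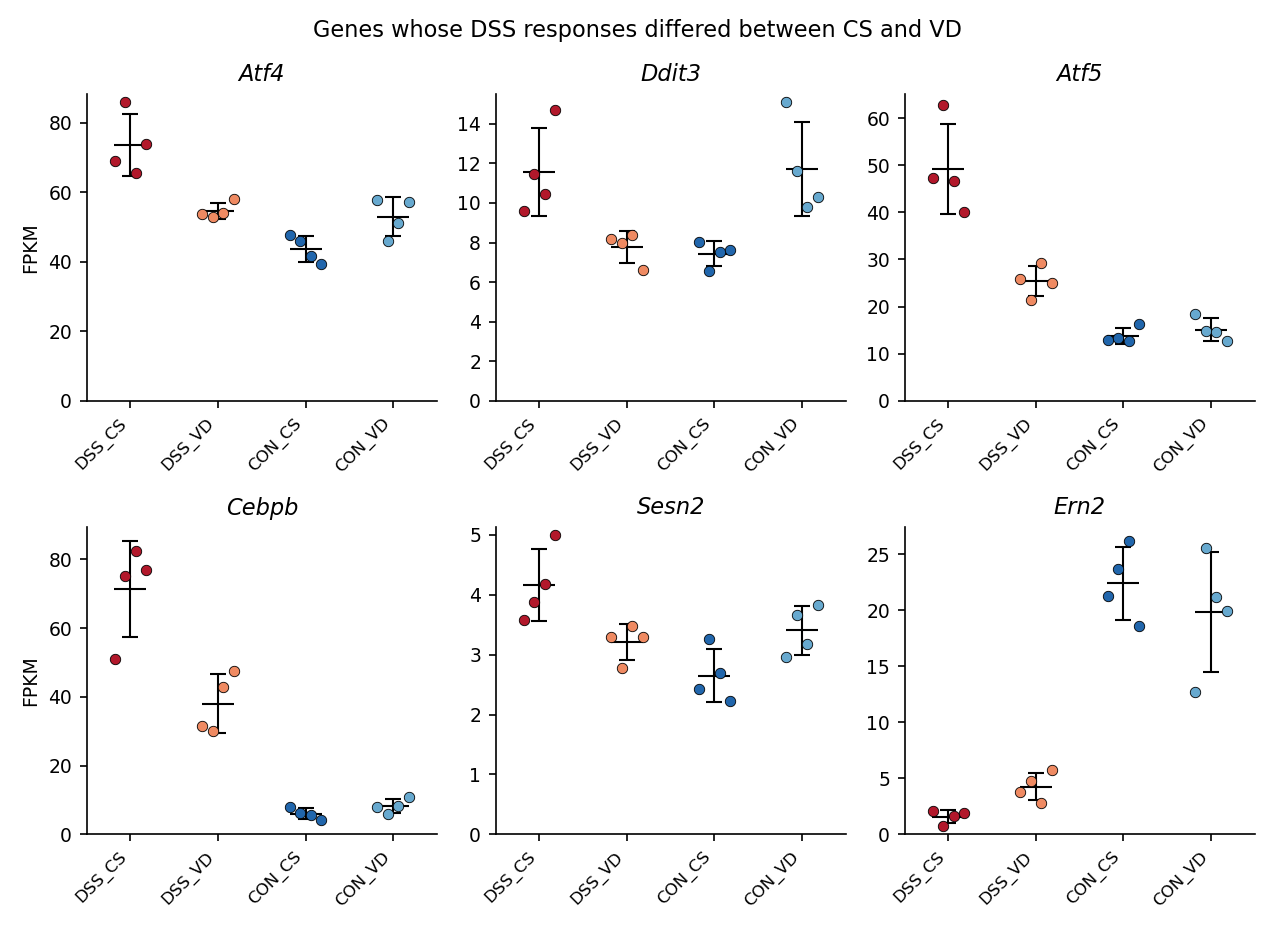
FPKM (linear axis from 0) in the 4 libraries of each group, with mean and SD, of Atf4, Ddit3 and the named genes Atf5, Cebpb, Sesn2 and Ern2, whose DSS responses differed between CS and VD mice with an adjusted p under 0.05. In Atf4, Ddit3, Atf5, Cebpb and Sesn2 all 4 DSS_CS libraries lie above all 4 DSS_VD libraries, and in Ern2 all 4 lie below. Of all genes tested in that comparison 15.3% were apart with DSS_CS higher.

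On normal water none of the 113 tested genes in these 5 lists passed between CON_CS and CON_VD, where 0.407% of 13275 tested genes did. For 25 of the 113 limma gave an unadjusted p under 0.05, beside 2598 of the 13275. The smallest p-values in the lists belonged to Mbtps1 (0.20 ± 0.09, adjusted p = 0.259), Pdia5 (-0.30 ± 0.11, adjusted p = 0.196), Derl3 (-0.74 ± 0.14, adjusted p = 0.0669), Sec11c (-0.40 ± 0.12, adjusted p = 0.140) and Cth (-0.30 ± 0.09, adjusted p = 0.138). Derl3 passed the filter here only through the CON_VD libraries.

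**Figure D5:**
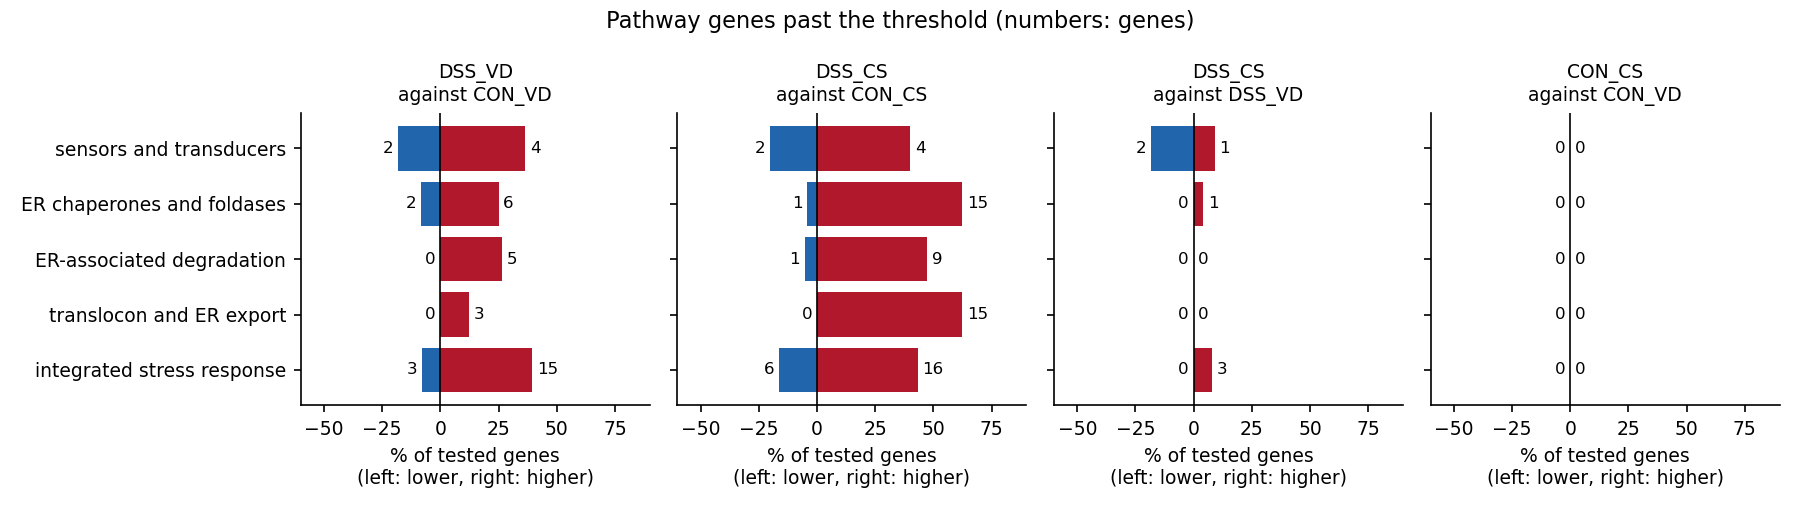
Share of tested genes of 5 pathway lists (horizontal, in percent of tested genes, higher to the right and lower to the left) that passed the threshold in 4 comparisons, with the number of genes beside each bar. In DSS_CS against CON_CS 15 of 24 chaperone and folding genes and 15 of 24 translocon and export genes were higher, and on water no bar differs from 0.

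Across the 16 libraries Hspa5, Hsp90b1 and Pdia4 were closely correlated, and all other members but Creb3l1 were positively correlated with them. Pearson correlations of log2(FPKM + 1) were 0.94 between Hspa5 and Pdia4, 0.92 between Hspa5 and Hsp90b1 and 0.91 between Hsp90b1 and Pdia4. With these 3 genes Xbp1 correlated at 0.78 to 0.89, Dnajb9 at 0.58 to 0.75 and Chac1 at 0.59 to 0.74. Atf4 did so at 0.52 to 0.73, Trib3 at 0.48 to 0.61 and Ddit3 at 0.24 to 0.37. Creb3l1 was negatively correlated with the other 9 members, at -0.88 with Chac1 and -0.07 with Ddit3. Among 13236 other genes compared, those most like Hspa5 were the ER chaperone gene Hyou1 (0.98), Manf (0.96) and Creld2 (0.95), which encode proteins released under ER stress, the translocon subunit gene Sec61a1 (0.93) and Serp1 (0.93), which guards new membrane proteins. Hyou1 showed the same high library on water, with 20.7, 12.4, 11.5 and 11.1 FPKM in CON_CS. Those most like Trib3 were Agtrap (0.94), Psmc1 (0.92), Aebp2 (0.92), Angpt4 (0.91) and Psmd12 (0.91). All these values share the 4 groups of libraries and their DSS contrast, and they are descriptions with no test.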

How the data were processed

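RNA of 16 colon libraries, 4 in each of 4 groups, was measured by RNA sequencing. The deposited values are FPKM per gene, computed by the authors. Trimming and quality tools (cutadapt and FastQC, no version) and the build GRCm38 are given per the submitters' processing notes. What aligned and quantified the reads, with which annotation and strand setting, is not given in the sources used. Reads per gene were not recovered from FPKM, so no count test was run and depth is unknown.

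The genes and lists were chosen with earlier results of these data known. Groups come from the sample titles. Symbols were matched by Ensembl identifier. Gene positions are from GENCODE (GRCm38) and promoter sequences from RefSeq (GRCm38.p6), which held 9 of the 10 members. FPKM was used as log2(FPKM + 1), so fold changes of low genes are understated. Genes at 1 FPKM or more in at least 4 of the libraries fitted were tested with limma 3.58.1 in R 4.3.3, with an intensity trend. P-values were adjusted by the Benjamini-Hochberg method over all genes, with a threshold of 0.05. A pair of groups entered a fit of its 8 libraries alone, and the difference between DSS responses (CS minus VD) a fit of all 16. Members below the filter were compared by a two-sided exact permutation test (scipy 1.17.1). The scripts were tested on simulated data.

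Named genes are the 10 members, and from each pathway list and comparison the 3 genes of smallest p past the threshold, or the 1 of smallest p where none passed. For Hspa5 and Trib3 the 5 genes of highest Pearson correlation are also named. Atf6 and Atf6b, and the marker gene Mzb1, were named after their values were seen. Alternatives were another pseudocount (0.1), no filter, median-of-ratios scaling, no intensity trend, 1 fit on all groups, a replicate block, each library left out, and the 3 libraries left out in which an earlier analysis of these data had found Pbsn. For the pathway lists this last alternative was chosen after seeing the data.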

Additional observations from a re-analysis of the deposited data

Results flagged for a closer look

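In CON_CS replicate 1 Hspa5 was at 172.859 FPKM and Pdia4 at 66.823 FPKM, each far above the other 3 libraries of the group. The gap to the next library was 0.97 of the group's whole range for Hspa5 and 0.928 for Pdia4. These were 2 of the 40 groups of 4 values examined, and chance alone flags about 5% of groups. The same library held Pbsn at 185 FPKM, and the part of that tissue in these levels was not tested.

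The DSS response differed between CS and VD mice for Ddit3, by 1.0801 on the log2 scale (adjusted p = 0.00849, limma), and for Atf4, by 0.6891 (adjusted p = 0.0121). Ddit3 was higher in all 4 DSS_CS libraries than in any CON_CS library and lower in all 4 DSS_VD libraries than in any CON_VD library. Atf4 was higher in all 4 DSS_CS libraries than in any CON_CS library, and overlapped between DSS_VD and CON_VD.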

How the results depend on the processing

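Over 751 results of single genes under alternatives, 656 kept direction and side of the threshold, 46 lost the call, 9 gained one and 40 turned direction. None of the 250 results that started from a called value turned. The counts of members that follow include Chac1 and Trib3 where tested, which are kept apart above because of the filter. The number of members past the threshold in DSS_VD against CON_VD was 4, and 2 with median-of-ratios scaling and 2 to 4 with each library left out. Over all genes 5704 of 13933 tested passed there, 5977 of 14009 with that scaling, and 4050 to 5410 with each library left out. In DSS_CS against CON_CS the number of members was 9, and 7 with median-of-ratios scaling, 8 with no filter, 6 without the libraries with Pbsn and 6 to 10 with each library left out. Over all genes 8666 of 14372 tested passed there, 8768 of 14288 with that scaling and 10979 of 32857 with no filter. Without the libraries with Pbsn 5217 of 12324 passed, and with each library left out 6950 to 7909. In DSS_CS against DSS_VD the number of members was 2, and 0 with no filter, with median-of-ratios scaling, with the replicate block and without the libraries with Pbsn, and 0 to 1 with each library left out. Over all genes 1923 of 14313 tested passed there, 3 of 32941 with no filter and 1711 of 14144 with that scaling. With the replicate block 2 of 14313 passed, without the libraries with Pbsn 6 of 13756, and with each library left out 0 to 2054. In CON_CS against CON_VD the number of members was 0, and 1 with median-of-ratios scaling (Dnajb9) and 0 to 1 with each library left out. Over all genes 54 of 13275 tested passed there, 69 of 13371 with that scaling, and 0 to 275 with each library left out. The cause of these changes was not tested. Median-of-ratios scaling moved the median of all genes in DSS_CS against CON_CS to -0.049, against 0.058 as deposited.

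Uncalled differences that turned direction were, with median-of-ratios scaling, Atf4 at -0.059 in DSS_VD against CON_VD, Xbp1 at -0.053, Pdia4 at -0.0097 and Trib3 at -0.0077 in DSS_CS against DSS_VD, and Hsp90b1 at -0.048 in CON_CS against CON_VD. Without the libraries with Pbsn they were, in DSS_CS against DSS_VD, Xbp1 at -0.23, Dnajb9 at -0.18, Hspa5 at -0.10, Hsp90b1 at -0.10 and Pdia4 at -0.23, in CON_CS against CON_VD Hsp90b1 at -0.086, and for the difference of responses Hsp90b1 at -0.018, Pdia4 at -0.018 and Trib3 at 0.11.

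With each library left out, values ran in DSS_VD against CON_VD between -0.022 and 0.24 for Dnajb9 and between -0.015 and 0.092 for Atf4. In DSS_CS against DSS_VD they ran between -0.10 and 0.17 for Xbp1, -0.032 and 0.18 for Hsp90b1, -0.10 and 0.22 for Pdia4, -0.15 and 0.18 for Trib3, and -0.11 and 0.29 for Creb3l1. In CON_CS against CON_VD they ran between -0.086 and 0.17 for Hsp90b1, -0.21 and 0.0445 for Pdia4, and -0.13 and 0.11 for Creb3l1. For the difference of responses they ran between -0.068 and 0.18 for Hsp90b1, -0.0056 and 0.31 for Pdia4, -0.34 and 0.0007 for Trib3, and -0.077 and 0.33 for Creb3l1.

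The replicate numbers were not used as pairs. Deviations of libraries with the same number correlated at -0.278 to 0.128, and with the replicate block 3, 9, 0, 0 and 2 members passed in DSS_VD against CON_VD, DSS_CS against CON_CS, DSS_CS against DSS_VD, CON_CS against CON_VD and the difference of responses. Over all genes 5221 of 13933, 8247 of 14372, 2 of 14313, 7 of 13275 and 1520 of 15233 passed with the block, in the same order. Depth is unknown, and 4 libraries in each group limit the precision.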
